A study of Mus musculus with 40 samples.

Results

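ERVL-MaLR elements are the retrotransposon families that the annotation of transposable elements (TEs) names with the subclass ERVL-MaLR. All families with that subclass in the table of reads over TE families were taken, 65 of 1243, together with every genomic copy of them that was counted on its own, 534111 of 3799629 copies. Of these copies, 224391 lay inside a gene span (from the first to the last exon base of an annotated gene), 235618 lay at least 5 kb outside every gene span, and 74102 lay between these limits. RNA was sequenced from 40 libraries of mouse embryonic stem cells: naive mES cells kept for 48 h in 2i + LIF medium (3 µM CHIR-99021 and 1 µM PD0325901), and epiblast-like cells (EpiLCs) collected after 48 h in 20 ng/mL FGF and 12 ng/mL Activin A. Each stage had 8 wild-type (WT) libraries and 4 libraries each of LBRKO cells, which carry indels in Lbr (the lamin B receptor of the inner nuclear membrane), of TKO cells, which lack the lamins encoded by Lmna, Lmnb1 and Lmnb2, and of QKO cells, which are TKO cells with a further indel in Lbr. The question asked of these families was how their RNA changed when the proteins that hold heterochromatin at the nuclear periphery were lost, in the naive and in the primed state.

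The cell lines limit what each group stands for. All QKO libraries come from a single clone made in the TKO line, the TKO line and the WT line are littermates, and the clone behind each LBRKO library is not given in the sources used here. The study's karyotyping described trisomy 8 in the TKO line, with the Y chromosome lost in part of its cells, and a minority of WT cells with Y loss, some of them also with trisomy 6 and 8. By the study's methods each replicate came from its own well of cells, but whether these wells were grown on separate days or from separate cultures is not given, so each p-value measures the spread between these libraries, which may be technical. In such bulk RNA, more cells that use an element and more RNA of it per cell cannot be told apart.

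Mammalian apparent LTR retrotransposons are relatives of endogenous retroviruses that move with proteins made by other elements. An intact copy is an internal stretch between long terminal repeats (LTRs), the LTR holds a promoter and a polyadenylation signal, and most copies in the genome are LTRs alone. In the mouse, the rodent MT and ORR1 families are known for LTR promoters used in oocytes and early embryos, where they start chimeric transcripts into genes, whereas MLT1 families are older and are also found in other mammals. Heterochromatin marked by histone H3 lysine 9 methylation, DNA methylation and the nuclear periphery are each associated with silent copies. By name, the 65 families held 11 MT families (183889 copies), 18 ORR1 families (267194 copies), 34 MLT1 families (81773 copies) and 2 others (1255 copies). LTR families made up 53 and internal families 12 of the 65.

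The copies described most closely below are shown first, because each carries 1 of the patterns in the results: ORR1F_dup3859 (chr3:83777730-83777995, + strand, between genes, 26966 bases from Tmem131l) was high in QKO mES cells, MTE2b_dup7706 (chr8:81625351-81625679, + strand, 17552 bases from Gm31105) in QKO cells of both stages, ORR1A3_dup3187 (chr11:19830000-19830275, + strand, 44099 bases from Spred2) had no read in TKO and QKO libraries, and ORR1A0_dup1704 (chr10:60898657-60899002, - strand, 10977 bases from Gm20610) and MTA_Mm_dup11669 (chr10:88510582-88510973, - strand, in an exon of Spic) were high in naive cells. The letters are the reference genome GRCm39, read on the strand of the copy from 5′ to 3′, up to the last 300 bases of each copy, and capitals mark the hexamers AATAAA and ATTAAA, which can act as polyadenylation signals.
ORR1F_dup3859: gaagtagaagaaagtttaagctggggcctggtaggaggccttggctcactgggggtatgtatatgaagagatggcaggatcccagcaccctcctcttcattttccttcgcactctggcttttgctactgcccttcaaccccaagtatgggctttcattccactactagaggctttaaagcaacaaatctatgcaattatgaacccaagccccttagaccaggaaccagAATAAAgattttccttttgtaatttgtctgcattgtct
MTE2b_dup7706: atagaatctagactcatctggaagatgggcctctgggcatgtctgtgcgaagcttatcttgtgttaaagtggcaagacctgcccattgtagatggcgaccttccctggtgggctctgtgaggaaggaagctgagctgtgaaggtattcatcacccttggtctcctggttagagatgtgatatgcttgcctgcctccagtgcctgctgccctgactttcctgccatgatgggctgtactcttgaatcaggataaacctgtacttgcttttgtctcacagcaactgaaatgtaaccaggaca
ORR1A3_dup3187: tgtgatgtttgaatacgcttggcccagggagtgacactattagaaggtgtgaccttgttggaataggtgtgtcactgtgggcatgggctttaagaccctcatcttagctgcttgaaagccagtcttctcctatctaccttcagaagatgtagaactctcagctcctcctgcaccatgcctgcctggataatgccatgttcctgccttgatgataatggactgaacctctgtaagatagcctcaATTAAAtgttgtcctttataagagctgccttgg
ORR1A0_dup1704: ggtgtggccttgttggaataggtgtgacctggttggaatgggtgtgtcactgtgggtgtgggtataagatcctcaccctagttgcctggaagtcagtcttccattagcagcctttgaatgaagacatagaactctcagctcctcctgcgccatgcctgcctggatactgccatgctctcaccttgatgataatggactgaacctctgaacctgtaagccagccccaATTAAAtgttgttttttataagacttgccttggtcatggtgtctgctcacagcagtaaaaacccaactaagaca
MTA_Mm_dup11669: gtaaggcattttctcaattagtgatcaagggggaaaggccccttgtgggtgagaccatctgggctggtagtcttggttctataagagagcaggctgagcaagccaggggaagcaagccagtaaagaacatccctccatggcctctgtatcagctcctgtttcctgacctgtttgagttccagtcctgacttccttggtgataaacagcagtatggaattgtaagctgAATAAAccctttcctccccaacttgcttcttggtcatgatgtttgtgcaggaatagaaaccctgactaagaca

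AATAAA was found in ORR1F_dup3859 and MTA_Mm_dup11669, ATTAAA in ORR1A3_dup3187 and ORR1A0_dup1704, and neither in MTE2b_dup7706, on the strand of the copy. The motifs were also counted in the 190490 ERVL-MaLR LTR copies of 250 to 400 bases on all chromosomes but chr18. Of these, 33.5% held AATAAA and 20.7% held ATTAAA on the strand of the copy, and 39.9% and 27.4% on either strand. Among the 372 such copies that lay outside gene spans and passed the filter on low counts, the shares on the strand of the copy were 32.5% and 24.2%. A match describes the letters of the copy and does not show where a transcript ends.

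The gene counts summed to between 22594640 and 48863506 per library. The lamin genes checked the labels, with levels given as CPM, the reads of a feature scaled to a library total that is the same for all libraries: Lmnb1 averaged 514.6 CPM in WT mES cells against 8.47 in TKO and 13.8 in QKO cells, and Lmnb2 averaged 105.4 against 4.30 and 2.58. Lbr transcript remained, at 371.9 CPM in WT, 208.7 in LBRKO and 237.4 in QKO mES cells, and its indels are not visible in these counts. Naive markers fell in EpiLCs for 8 of 8 genes and primed markers rose for 5 of 6, where 12.9% of all genes tested were called lower and 18.2% higher. A gene or family was called when its adjusted p was under 0.05 and its fold over 2, by edgeR's quasi-likelihood test over all 8 groups. Over the ERVL-MaLR values, 4 libraries stood apart from the others of their group: WT mES replicate 7, WT EpiLC replicate 7 and LBRKO EpiLC replicate 3 were high, and TKO EpiLC replicate 1 was low.

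At the level of families, whose counts also take reads that match many copies, nearly every ERVL-MaLR family was higher in QKO cells by less than 2-fold. The family counts were made together with those of genes and are another measure than the copy counts below. In WT mES replicate 1 they held 176170 ERVL-MaLR reads, against 192394 uniquely placed reads on inside copies alone. All 65 families passed the filter on low counts. In QKO against WT mES cells the log2 fold change was positive in 65 of 65 families, from 0.49 to 1.23 with a median of 0.80, and 65 passed an adjusted p of 0.05 without a limit on the fold, where 81.1% of all TE families tested did so in the same direction. In QKO against WT EpiLCs the median was 0.81, from 0.22 to 1.03, and 64 of 65 passed the adjusted p alone, where the background was 83.9%. The median over all 1142 TE families tested was 0.82 in mES cells and 0.85 in EpiLCs, and over all genes and families together it was -0.06 and 0.01. The ERVL-MaLR families therefore moved by about as much as the middle TE family.

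Few of these rises were over 2-fold when all libraries were used. In QKO mES cells 3 of 65 families were called higher and 0 lower, where 25.1% of TE families were called higher, and in QKO EpiLCs 1 of 65 was called higher and 0 lower, where the background was 26.0%. Without WT mES replicate 7 the count in mES cells was 12, and in EpiLCs it was 6 without WT EpiLC replicate 7 and 0 without QKO EpiLC replicate 2. With WT replicates 1 to 4 only, 27 families were called higher in QKO mES cells and 10 in QKO EpiLCs. With WT replicates 5 to 8 only, the counts were 1 and 3. The background shares under these alternatives are not given. Against TKO EpiLCs, 4 of 65 families were called higher in QKO EpiLCs (background 21.8%), MLT1E1, MLT1E2, MLT1L and MLT1H2, and the count ran from 1 without TKO EpiLC replicate 1 to 6 without QKO EpiLC replicate 1. By adjusted p alone 54 families rose in QKO against TKO mES cells (background 53.2%) and 64 in QKO against TKO EpiLCs (background 77.9%), with medians of 0.56 and 0.82.

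Loss of the lamins alone or of LBR alone moved the families less. No ERVL-MaLR family was called by edgeR in LBRKO mES cells (background 0.613% of TE families in either direction), LBRKO EpiLCs (1.14%), TKO mES cells (2.19%), TKO EpiLCs (0.963%), QKO against TKO mES cells (4.47%) or WT EpiLCs against WT mES cells (4.55%). The count was 0 as well with DESeq2, and with a fold over 2 and p under 0.05 before adjustment. By adjusted p alone, 4 families rose in LBRKO mES cells, 6 in LBRKO EpiLCs, 5 in TKO mES cells and 1 in TKO EpiLCs, where 1 also fell. The median log2 fold change was 0.31 in LBRKO and 0.24 in TKO mES cells, and 0.33 and -0.01 in EpiLCs. Over all TE families these medians were 0.30, 0.25, 0.32 and 0.01. Between the stages in WT cells the ERVL-MaLR median was 0.12, against 0.15 over all TE families. By adjusted p alone 3 ERVL-MaLR families were higher and 2 lower there. The shares of all TE families that passed by adjusted p alone are not given for these comparisons.

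Whether the QKO change exceeded the sum of the TKO and LBRKO changes was tested by an interaction term. Again no family was called over 2-fold in mES cells (background 2.63%) or EpiLCs (4.55%), by edgeR, by DESeq2 or at an unadjusted p under 0.05. By adjusted p alone the excess was positive for 2 of 65 families in mES cells and 12 in EpiLCs, with medians of 0.26 and 0.51 on the log2 scale. Over all TE families the medians were 0.27 and 0.53, and the shares that passed by adjusted p alone are not given. The difference between the stage change in QKO cells and that in WT cells passed for 0 of 65 families by edgeR, with and without the limit on fold (background 2.01% with it), by DESeq2 with it, and at an unadjusted p under 0.05 with a fold over 2.

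**Figure D1:**
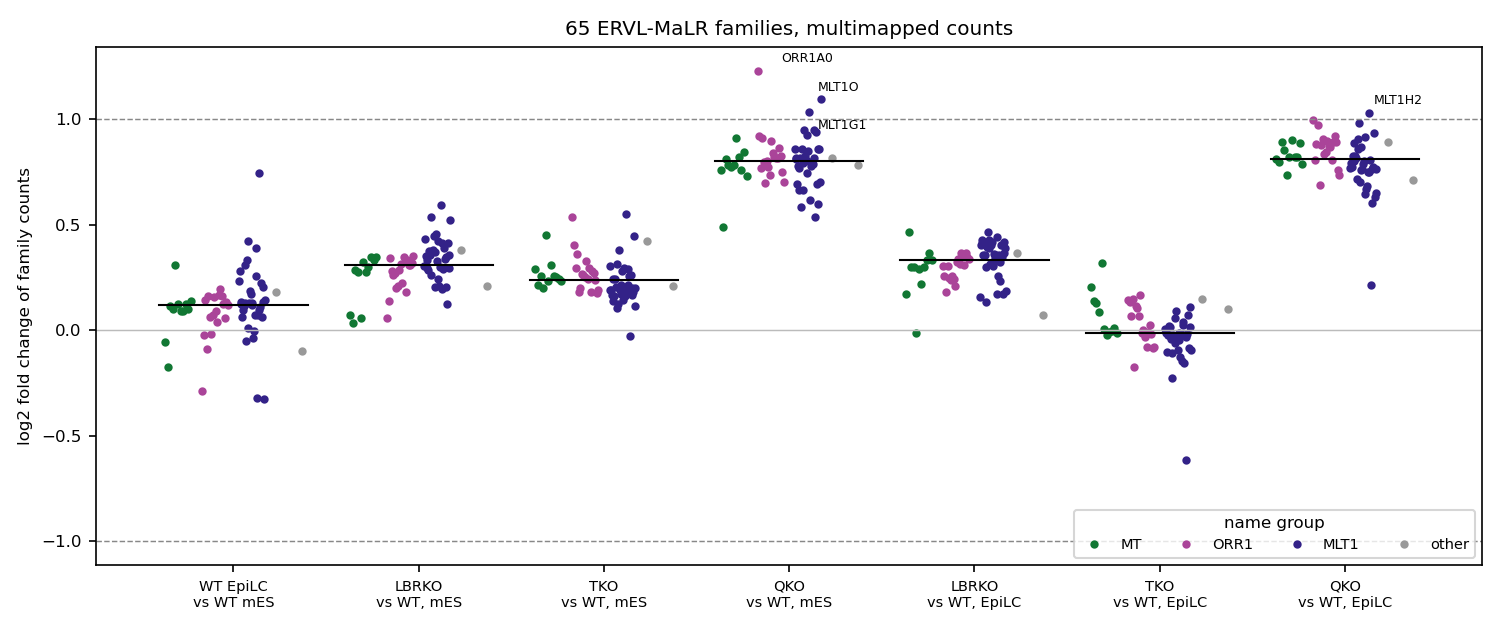
Log2 fold change of the 65 ERVL-MaLR families (points, from edgeR) in 7 comparisons on the x axis, set apart by name group, with black lines at the medians, dashed lines at a fold of 2 and called families labelled. The points of QKO against WT lie between 0.49 and 1.23 in mES cells and between 0.22 and 1.03 in EpiLCs, and the medians of the other comparisons between -0.01 and 0.33.

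The family with the largest QKO change in mES cells was ORR1A0, an LTR family of the ORR1A series. Its level in QKO mES cells was 226.8, 212.8, 222.4 and 221.9 CPM in the 4 libraries, against 134.7, 125.9, 145.7 and 140.7 in TKO mES cells. WT mES cells ran from 82.1 to 104.6 CPM with a median of 95.1, and LBRKO mES cells from 90.0 to 103.4. The QKO libraries were above all TKO libraries and these above all WT and LBRKO libraries, with no overlap. ORR1A0 rose by 1.23 ± 0.08 (SE) on the log2 scale in QKO mES cells (edgeR adjusted p = 2.69e-16) and by 0.54 ± 0.08 in TKO mES cells (edgeR adjusted p = 1.48e-06). In LBRKO mES cells its log2 difference was 0.06 and did not pass (edgeR adjusted p = 0.632).

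In EpiLCs ORR1A0 stood at 161.8, 164.1, 141.6 and 148.6 CPM in QKO cells. TKO EpiLCs held 89.2, 88.6, 78.7 and 84.6 CPM, within the WT EpiLC range of 69.3 to 92.8 (median 75.6). The QKO libraries were above all others of the stage, whereas TKO and WT overlapped. The QKO rise was 1.00 on the log2 scale (edgeR adjusted p = 1.07e-13), just under the 2-fold limit, and the TKO difference was 0.15 (edgeR adjusted p = 0.254). The interaction of the lamin and LBR losses was positive for ORR1A0 in both stages, at 0.63 ± 0.12 in mES cells and 0.55 ± 0.12 in EpiLCs (edgeR adjusted p = 1.81e-04 and 8.97e-04). ORR1A0 was picked for its QKO rise in the same mES libraries, a choice that favours a positive excess there.

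The 2 other families called in QKO mES cells were old MLT1 families with few reads. MLT1O stood at 7.67, 8.12, 9.86 and 8.86 CPM in QKO mES cells against 3.01 to 6.07 in WT, and MLT1G1 at 7.81, 7.84, 10.2 and 8.39 against 2.53 to 6.64. Neither overlapped between the groups, and the log2 differences were 1.10 ± 0.18 and 1.03 ± 0.19 (SE, edgeR adjusted p = 1.94e-06 and 2.28e-05). MLT1H2, the family called in QKO EpiLCs, stood at 12.2, 15.7, 13.0 and 12.5 CPM there against 4.98 to 8.16 in WT EpiLCs and 5.52, 6.89, 8.05 and 6.08 in TKO EpiLCs. Its QKO libraries were above all of these, with a log2 difference from WT of 1.03 ± 0.15 (edgeR adjusted p = 2.22e-07).

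The 8 families with the most reads were ORR1B1-int, MTD, MTA_Mm, MTC, ORR1A2, ORR1D1, ORR1B1 and ORR1E, whose means over the 40 libraries fell from 849.7 CPM for ORR1B1-int, the internal part of an ORR1 element, to 246.0 for ORR1E. All 8 rose in QKO cells of both stages by adjusted p, by 0.74 to 0.91 on the log2 scale in mES cells and by 0.81 to 0.98 in EpiLCs, and none was called over 2-fold. MTD, a rodent MT LTR, stood at 874.3, 1042, 1233 and 1063 CPM in QKO mES cells, against 493.4 to 921.1 (median 575.8) in WT. The groups overlapped only through WT mES replicate 7, which held 921.1 CPM. MTA_Mm, an MT LTR family of the mouse, stood at 800.7, 892.2, 948.7 and 873.4 CPM in QKO mES cells, and WT mES cells ran from 454.9 to 643.4 with a median of 504.6, without overlap. In TKO mES cells only MTA_Mm and ORR1A2 of these 8 passed the adjusted p, with log2 differences of 0.29 and 0.36 (edgeR adjusted p = 0.0191 and 0.0364).

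Reads that map to a single copy separate the copies by place. Copies at least 5 kb outside gene spans cover 60.4 Mb but held few reads, with a read in any library in 23.9% of them, whereas inside gene spans, over 51.2 Mb, 62.2% had a read. In WT mES cells the level per Mb was 7.23 CPM outside and 148.7 CPM inside. The summed level outside was 961.1, 1081, 1202 and 1078 CPM in the QKO mES libraries and 605.1, 634.5, 639.8 and 694.6 in TKO. WT mES libraries ran from 369.9 to 635.6 CPM with a median of 411.6, and LBRKO libraries held 493.5, 438.2, 519.7 and 561.6. Every QKO library was above every library of the other genotypes, and TKO overlapped WT only through WT mES replicate 7. All outside TE copies together rose as well, and summed to 13160 to 14990 CPM in QKO mES cells. They summed to 8797 to 9917 CPM in TKO and 4482 to 7071 in WT mES cells. ERVL-MaLR copies held 7.21% to 8.06% of these reads in QKO, 6.56% to 7.27% in TKO and 6.89% to 9.19% in WT.

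The ERVL-MaLR sums were compared by exact two-sided permutation tests of log2 values, adjusted over 36 tests. Outside gene spans the QKO mES level was 1.32 ± 0.11 (SE) above WT on the log2 scale (exact permutation p = 0.00202, adjusted p = 0.0104), and the TKO level was 0.58 ± 0.10 above it (adjusted exact p = 0.0218). LBRKO mES cells differed from WT by 0.22 and did not pass (adjusted exact p = 0.212). The group means were 436.8 ± 86.2 CPM in WT (SD, n = 8), 503.2 ± 51.6 in LBRKO, 643.5 ± 37.3 in TKO and 1080 ± 98.2 in QKO mES cells (SD, n = 4 each). QKO stood 0.74 above TKO, with no overlap (exact permutation p = 0.0286, the lowest that 4 libraries against 4 can give, adjusted p = 0.0490). With only WT replicates 1 to 4 or 5 to 8, none of the 36 sums passed, and the lowest adjusted exact p was 0.0541.

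In EpiLCs the outside level rose in QKO cells and not in TKO cells by the same test. QKO EpiLCs held 730.9, 746.6, 737.0 and 777.3 CPM outside gene spans and TKO EpiLCs 307.9, 377.9, 356.6 and 361.2, with WT from 290.3 to 432.2 (median 353.4). The QKO libraries were above all others of the stage, among them LBRKO replicate 3 at 601.6 CPM, and TKO lay within the WT range. The log2 differences from WT were 1.11 ± 0.08 in QKO (adjusted exact p = 0.0104), 0.01 in TKO (adjusted exact p = 0.933) and 0.26 in LBRKO (adjusted exact p = 0.263). Between WT stages the outside level fell by 0.31 on the log2 scale in EpiLCs (adjusted exact p = 0.0452), while the inside level differed by 0.04 (adjusted exact p = 0.738). All outside TE copies summed to 10490 to 11580 CPM in QKO EpiLCs, 7907 to 8508 in TKO and 5147 to 6915 in WT. ERVL-MaLR copies held 6.36% to 7.41% of these reads in QKO, 3.62% to 4.78% in TKO and 5.21% to 6.84% in WT.

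**Figure D2:**
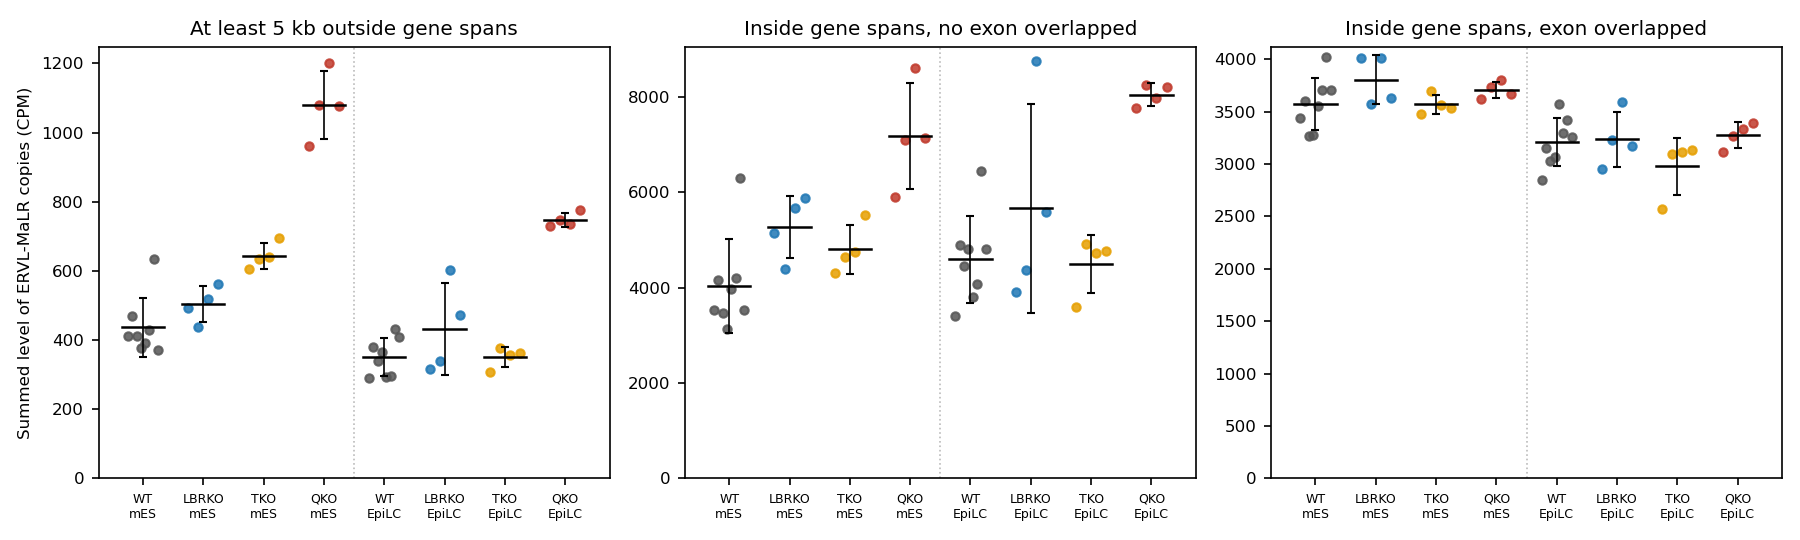
Summed level of ERVL-MaLR copies in CPM (y axis) at least 5 kb outside gene spans, inside without an exon, and inside with an exon, for the 8 groups on the x axis. Points are libraries, lines are group means and bars are 1 SD. The outside points of QKO lie at 961.1 to 1202 CPM in mES cells and 730.9 to 777.3 in EpiLCs, above all others of the stage, and for copies with an exon the mean is 3708 CPM in QKO and 3574 in WT mES cells.

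Inside gene spans the change was smaller. The inside level was 10890 ± 1177 CPM in QKO mES cells against 7610 ± 1214 in WT (SD, n = 4 and 8), a log2 difference of 0.53 (adjusted exact p = 0.0162), with overlap between the groups. In EpiLCs it was 11330 ± 331 against 7798 ± 1017, a difference of 0.55 without overlap (adjusted exact p = 0.0104). The TKO differences, 0.15 in mES cells and -0.06 in EpiLCs, and those of LBRKO, 0.27 and 0.16, did not pass. The ratio of the outside to the inside level was itself higher in QKO mES cells by 0.80 on the log2 scale, in QKO EpiLCs by 0.56 and in TKO mES cells by 0.43 (adjusted exact p = 0.0104 each). The share of the outside copies in all uniquely placed ERVL-MaLR reads went from 5.01% in WT to 6.55% in TKO and 8.19% in QKO mES cells, and from 4.00% in WT to 5.67% in QKO EpiLCs. Even so, most of the added reads lay inside genes: of the QKO gain in mES cells 3282 CPM (72.8%) was inside, 584.0 (13.0%) within 5 kb and 643.6 (14.3%) outside, and in EpiLCs 79.8%, 11.2% and 8.98%.

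The inside copies were then split by exon overlap, a step added after these values had been seen. The 14564 copies that overlap an exon held 3708 ± 76.5 CPM in QKO mES cells and 3574 ± 250.3 in WT (SD, n = 4 and 8), a log2 difference of 0.06 (adjusted exact p = 0.392), and in EpiLCs the difference was 0.03 (adjusted exact p = 0.645). The 209827 copies inside without an exon held 5893, 7105, 8596 and 7140 CPM in QKO mES cells, against 3125 to 6306 (median 3745) in WT. The overlap came from WT mES replicate 7 alone, at 6306 CPM. In EpiLCs they held 7758, 8259, 7969 and 8214 CPM against 3408 to 6443 (median 4635), without overlap. The log2 differences of these copies were 0.85 in mES cells (adjusted exact p = 0.0162) and 0.83 in EpiLCs (adjusted exact p = 0.0121). Set against copies without an exon, the outside level remained higher in QKO, by 0.47 in mES cells and 0.27 in EpiLCs (adjusted exact p = 0.0121 each), and in TKO mES cells by 0.30 (adjusted exact p = 0.0162).

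Ancient L2 and MIR elements, which belong to other subclasses and no longer move, were the reference for the outside change. Relative to L2 and MIR copies outside gene spans, the ERVL-MaLR level was higher by 0.12 on the log2 scale in QKO mES cells (adjusted exact p = 0.0162) and by 0.10 in TKO mES cells (adjusted exact p = 0.0364), but at least 50 kb outside these values turned to -0.22 and -0.04. In QKO EpiLCs the relative level was -0.01 (adjusted exact p = 0.738) and in TKO EpiLCs 0.10 (adjusted exact p = 0.0468). In LBRKO mES cells it fell by 0.10 (adjusted exact p = 0.0364). L2 and MIR copies inside genes without an exon had a QKO log2 ratio of 0.77 in both stages, and those with an exon -0.08 in mES cells and -0.20 in EpiLCs.

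Most families had the larger change outside. Of the 63 families with at least 400 uniquely placed reads, 60 had a larger QKO ratio outside than inside in mES cells, with medians of 1.28 outside and 0.57 inside on the log2 scale of group means. In EpiLCs 57 of 63 did, with medians of 1.11 and 0.58, and in TKO mES cells 59 of 63, with medians of 0.54 and 0.15. Between WT stages 6 of 63 were larger outside, with medians of -0.34 outside and 0.10 inside. By name group, the outside log2 ratio of QKO mES cells was 1.23 for MLT1, 1.30 for MT and 1.34 for ORR1, and that in EpiLCs 1.15, 1.09 and 1.08, none of them with overlap between QKO and WT libraries. Inside, MLT1 copies had the lowest ratios, 0.31 in mES cells and 0.26 in EpiLCs, with overlap. These inside values include copies that overlap an exon, and the same counts over other TE families were not made. L2 and MIR copies outside gene spans held 192.4 to 238.7 CPM in QKO mES cells and 78.7 to 141.5 in WT, without overlap. Inside, L2 and MIR copies held 7615 to 8880 CPM in QKO mES cells and 6284 to 8638 in WT, with overlap.

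**Figure D3:**
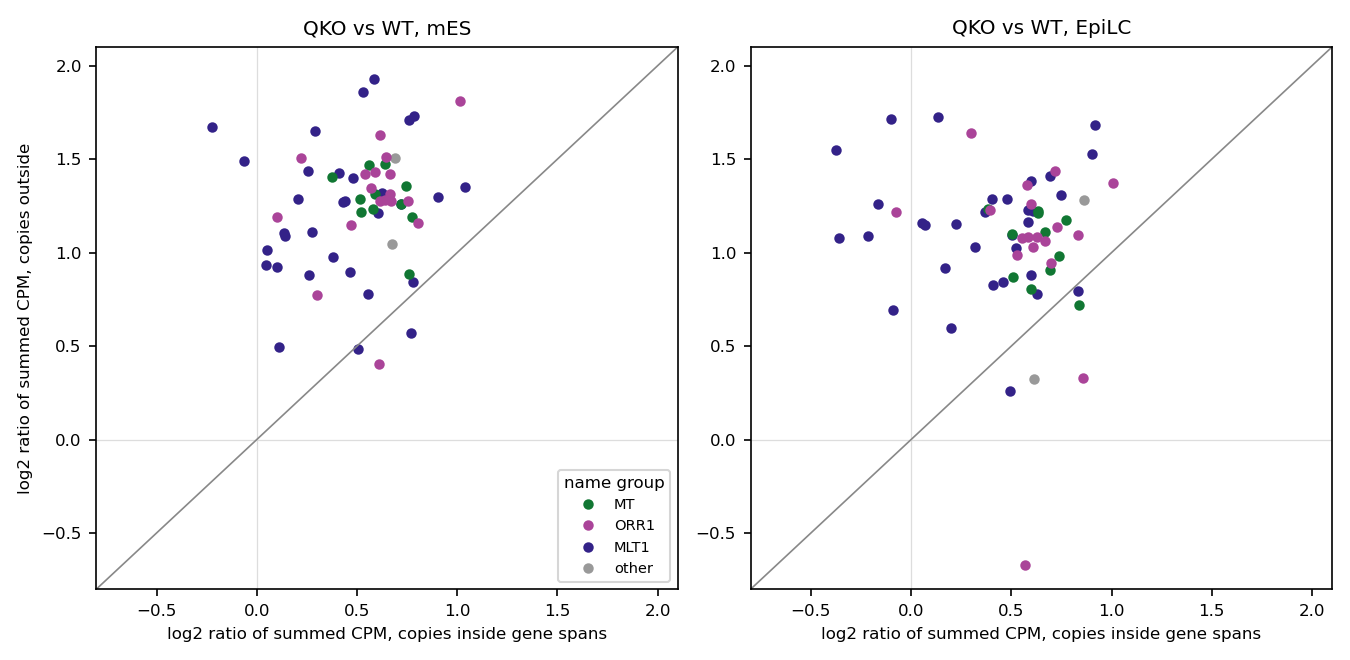
Log2 ratio of QKO to WT group means inside gene spans (x axis) and at least 5 kb outside (y axis) for 63 ERVL-MaLR families (points), in mES cells and EpiLCs, with a line of equal change. In mES cells 60 points and in EpiLCs 57 points lie above the line, and ORR1A3 lies below it in both.

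ORR1A3, an ORR1 LTR family, was an exception in both stages. Its 2369 outside copies had a QKO log2 ratio of 0.40 in mES cells and -0.67 in EpiLCs. A cluster of 5 of these copies on chr11 held 5.36 CPM in WT mES cells and 11.5 CPM in WT EpiLCs, 4.74 and 9.45 in LBRKO cells, 0 in TKO cells of both stages, and 0.0162 and 0.00799 in QKO cells. Without these copies, a set picked after their values had been seen, the ratios were 1.39 and 1.29 in QKO cells and 0.57 and 0.03 in TKO cells.

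The outside rise was spread over many copies. In QKO mES cells the mean of 16918 outside copies was higher than in WT and that of 11814 lower, the 20 largest rises made up 6.02% of all rises, and 1270 copies made up 50% of them. In EpiLCs the 20 largest made up 8.93% and 1246 copies reached 50%. Over the 2589 copies of ORR1A0, inside and outside together and so a set of another size, the 20 largest rises made up 44.9% in mES cells and 54.0% in EpiLCs, and 27 and 17 copies reached 50%.

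Single copies were tested where their reads allowed it. Of 134958 TE copies that passed the filter on low counts 13507 were ERVL-MaLR copies, 11723 inside and 697 outside, and the 697 held 32.5% of the reads of all outside copies. A copy could pass through the group in which it was high, so the counts below describe the copies tested and not all copies. In QKO mES cells 320 of 697 outside copies (45.9%) at 227 loci were called higher and 25 lower, against a background over all outside TE copies tested of 55.2% higher and 2.79% lower. Inside, 2333 of 11723 (19.9%) were called higher and 139 lower, with a background of 20.8% and 1.18%, and the inside count of higher copies ran from 1499 without QKO mES replicate 3 to 3200 without WT mES replicate 7. In QKO EpiLCs 304 outside copies (43.6%) at 208 loci were called higher and 20 lower (background 49.7% and 2.70%), and inside 3192 (27.2%) and 126 (background 27.3% and 1.23%).

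In TKO mES cells 84 outside copies (12.1%) were called higher and 20 lower, where the background was 21.4% and 2.06%, and inside 171 and 66 of 11723, where it was 1.84% and 0.543%. In TKO EpiLCs 20 outside copies were called higher and 16 lower (background 11.3% and 1.76%), and inside 67 and 38 (background 1.08% and 0.420%). LBRKO mES cells had 1 outside copy higher and 12 lower (background 0.360% and 2.62%), and 47 and 31 inside (background 0.377% and 0.259%). LBRKO EpiLCs had 28 and 2 outside (background 3.19% and 1.54%) and 164 and 17 inside (background 0.976% and 0.168%). The LBRKO counts leaned on single libraries and on the WT replicates used. Without WT mES replicate 7, 235 inside and 11 outside copies were called higher in LBRKO mES cells. With WT replicates 1 to 4 only, 357 inside copies were called higher there, and with WT replicates 5 to 8 only, 12. Without LBRKO EpiLC replicate 3, 77 inside and 13 outside copies were called higher in LBRKO EpiLCs.

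Between WT stages the outside copies went mostly down. In EpiLCs 63 outside copies (9.04%) at 42 loci were called higher and 320 (45.9%) at 206 loci lower, where the background over all outside TE copies was 16.1% and 28.6%. Inside, 1150 were called higher and 1202 lower, where it was 10.3% and 7.85%.

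**Figure D4:**
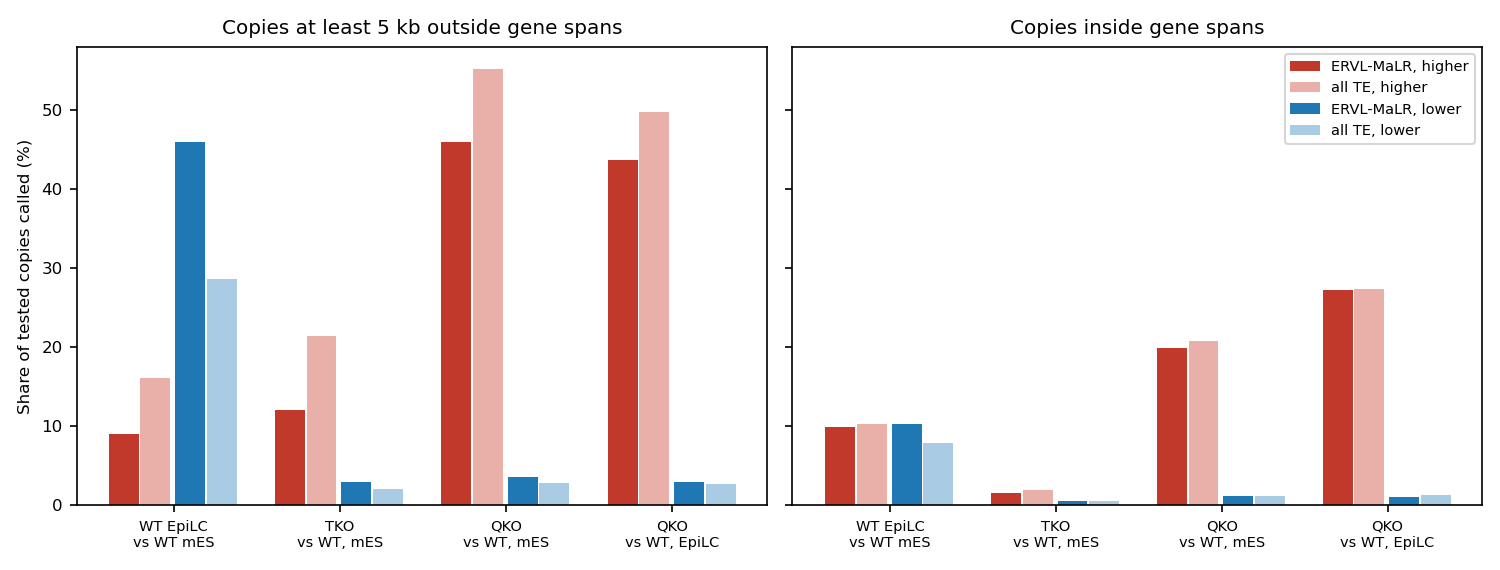
Share of tested copies called higher or lower (y axis, percent) among ERVL-MaLR copies and among all TE copies, inside and at least 5 kb outside gene spans, in 4 comparisons. Outside, 45.9% of ERVL-MaLR copies were higher in QKO mES cells against 55.2% of all TE copies, and 45.9% were lower in WT EpiLCs against 28.6%.

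The QKO calls of the stages overlapped in part. Of the outside copies called higher, 172 were called in both stages, which is 53.8% of the mES calls and 56.6% of the EpiLC calls. Over all outside TE copies called higher these shares were 64.0% and 71.0%. Inside, 1071 ERVL-MaLR copies were higher in both, 45.9% and 33.6%, where the shares over all inside TE copies were 47.5% and 36.3%. By name group, 146 of 319 tested outside ORR1 copies, 131 of 278 MT copies and 43 of 97 MLT1 copies were called higher in QKO mES cells, and 135, 132 and 37 in EpiLCs.

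Outside copies called higher often lay beside other TE copies that were called higher. Within 10 kb, 270 of 320 (84.4%) in QKO mES cells had a called copy of another subclass, against 178 of 352 outside copies that were not called (50.6%). A called L1 copy lay near 50.6% against 23.0%, and a called ERVK copy, the subclass of the intracisternal A particles, near 52.5% against 18.2%. A called SINE copy lay near 56.2% against 31.0%, a called ERVL copy near 18.8% against 6.25% and a called ERV1 copy near 13.4% against 6.25%. In EpiLCs the shares for any other subclass were 88.5% and 47.7%, and those for SINE copies 62.5% and 28.2%. The same shares for outside TE copies of all subclasses are not given. Copies near each other can share 1 transcript, so the loci and not the copies count separate units.

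The host genes of inside copies without an exon were compared with their copies. In QKO mES cells 1935 such copies in 1225 genes were called higher. The gene was called higher for 186 copies (9.61%) and not called for 1742, where 10.6% of all genes were called higher and 6.66% lower. Of the 7030 tested copies of this kind that were not called, 0.925% lay in a gene called higher, and of the 56 called lower 34 (60.7%) lay in a gene called lower. The median log2 difference of the copies called higher was 1.57 for the copy and 0.14 for the gene. In QKO EpiLCs 391 of 2636 copies (14.8%) lay in a gene called higher, against 2.03% of the copies not called, and 23 of 41 called lower (56.1%) in a gene called lower. Of all genes, 13.0% were called higher and 8.16% lower there. Between WT stages 491 of 917 copies called higher (53.5%) lay in a gene called higher, and 630 of 838 called lower (75.2%) in a gene called lower. Of the copies not called between stages, 2.37% lay in a gene called higher and 4.75% in a gene called lower. Over all genes these shares were 18.2% and 12.9%. Intronic copies on the strand opposite to the gene held 96.6 CPM per Mb in WT mES cells and those on its strand 64.6, with QKO log2 ratios of 0.83 and 0.88, and the strand of the reads themselves cannot be told from these counts.

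Among single copies outside gene spans, ORR1F_dup3859, a copy of an ORR1 LTR family, was among the highest by fold in QKO mES cells. Its level was 1.07, 1.34, 0.589 and 1.06 CPM in the QKO mES libraries and 0.495, 0.535, 0.442 and 0.621 in the TKO mES libraries, and no WT mES library exceeded 0.0595. QKO and TKO lay above all WT libraries, and only QKO replicate 3 fell within the TKO range. Over the groups 114 reads stood against 3 in WT, a ratio of 100.1 (95% counting interval 33.4 to 492.6) and a log2 fold change of 6.21 (edgeR adjusted p = 8.92e-14). In QKO EpiLCs it was lower than in QKO mES cells, at 0.18, 0.320, 0.393 and 0.308 CPM.

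MTE2b_dup7706, a copy of an MT LTR family, was read in QKO cells of both stages. Its QKO mES libraries held 2.47, 2.64, 3.30 and 3.09 CPM and its TKO mES libraries 0.627, 1.43, 0.471 and 1.13, against 0 to 0.112 in WT mES cells. In EpiLCs it held 0.756, 0.831, 1.11 and 1.09 CPM in QKO libraries and 0 in all TKO and WT libraries. With 120 reads against 0, the QKO level in EpiLCs was at least 94.7-fold higher than in WT, taking 3 reads over the WT group as the limit (edgeR adjusted p = 3.92e-17). The TKO libraries thus had the copy in mES cells and no read of it in EpiLCs.

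Inside genes, MTC-int_dup172 (chr2:150547058-150547119, in an intron of the long non-coding RNA gene Platr15) held 1.59, 3.37, 2.35 and 2.19 CPM in QKO mES cells. TKO mES libraries held 0.396, 0.428, 0.0883 and 0.110 CPM, and 1 read was seen over the 8 WT mES libraries. The 261 reads in QKO stood at a ratio of 687.5 (95% counting interval 122.3 to 27260) to that read. ORR1D1_dup11590 (chr9:115190910-115191000, outside gene spans, 19886 bases from Mir467h) held 1.76, 1.92, 1.86 and 2.52 CPM in QKO EpiLCs with 256 reads against 3 in WT, a ratio of 202.0 (95% counting interval 68.3 to 986.1). These intervals and limits cover counting error only.

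Some copies were read in only some of the lines. Among the 13507 ERVL-MaLR copies tested, 14 had no read in all 16 TKO and QKO libraries. The same count over all TE copies tested was not made. Of these 14, 7 lay together in chr11:19830000-19836241, between 38133 and 44099 bases from Spred2. ORR1A3_dup3187 of that cluster held 0.615 to 1.47 CPM in WT mES cells, 1.26, 0.85, 0.955 and 1.30 in LBRKO mES cells and 1.37 to 2.64 in WT EpiLCs. It was at least 42.1-fold lower in QKO than in WT mES cells and at least 88.4-fold lower in EpiLCs. ORR1C1_dup8037 (chr17:36474444-36475431, in an exon of H2-T5, a non-classical MHC class I gene) was another, at least 201.2-fold lower in QKO mES cells and at least 93.3-fold lower in EpiLCs. Since TKO cells lacked these reads as well, the loss of the lamins and any sequence difference of the TKO line cannot be told apart here.

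A further 14 copies had no read in all 24 WT and LBRKO libraries and were read in TKO or QKO cells, 10 of them on chr13 and 2 on chrY. For these too, the share over all TE copies is not given. The chrY copies ORR1B1-int_dup39550 and ORR1B1-int_dup39552 led the outside list of QKO mES cells, at least 240.6-fold and 61.5-fold higher than WT. Kdm5d, a gene of the Y chromosome, averaged 0.449 CPM in WT, 0.259 in LBRKO, 1.69 in TKO and 19.3 in QKO mES cells, whereas Uty, another, averaged 32.6, 36.2, 36.9 and 49.6. The part of the Y chromosome's copy number in these values was not tested. Leaving out chromosomes 6, 8 and Y changed neither the direction nor the call of the outside sums in QKO against WT cells.

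Copies read mainly in naive cells fell with the stage. ORR1A0_dup1704, outside gene spans, held 1.28 to 2.30 CPM (median 2.02) in WT mES cells and at most 0.0247 in WT EpiLCs, with 574 reads against 3, a ratio of 193.2 (95% counting interval 65.8 to 939.8). LBRKO EpiLCs held 0.182, 0.102, 0.167 and 0.106 CPM, all above every WT EpiLC library. MTA_Mm_dup11669, in an exon of Spic (a transcription factor gene of the Ets family), held 3.13 to 4.2 CPM in WT mES cells and 0 in all WT EpiLC libraries, a level at least 355.9-fold lower. In mES cells LBRKO libraries were below all WT libraries, at 1.87, 2.23, 1.72 and 1.43 CPM, and TKO and QKO libraries above them, at 5.55, 6.28, 4.77 and 5.59 and at 6.59, 7.43, 5.89 and 5.14.

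**Figure D5:**
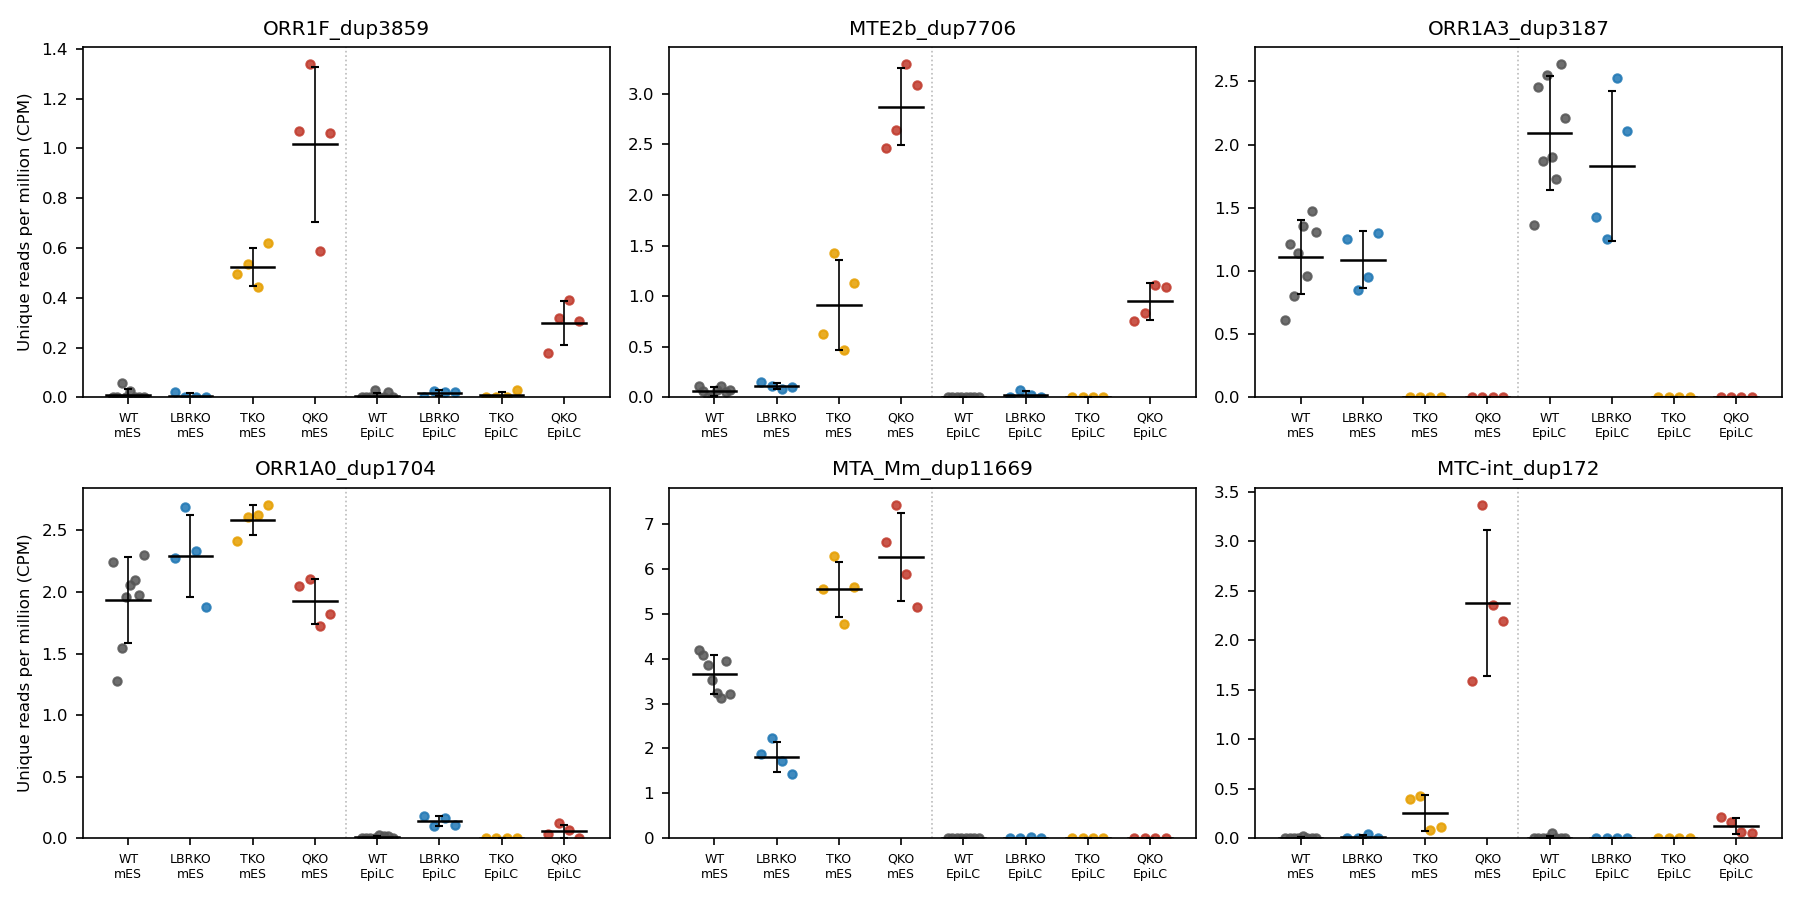
Level in CPM (y axis) of 6 ERVL-MaLR copies in each library (points) of the 8 groups (x axis), with lines at group means and bars of 1 SD. ORR1F_dup3859 and MTE2b_dup7706 are highest in QKO mES cells, ORR1A3_dup3187 is at 0 in TKO and QKO cells, and MTA_Mm_dup11669 is at 0 in WT EpiLCs.

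The genes that silence endogenous retroviruses were looked at beside these values. Of 28 repressor genes tested, 1 was called higher and 0 lower in QKO cells of each stage, where 10.6% of all genes were called higher and 6.66% lower in mES cells and 13.0% and 8.16% in EpiLCs. The list had median log2 differences of 0.02 in mES cells and -0.12 in EpiLCs, against 0.01 and -0.01 over all genes. The gene called was Dnmt3l, a cofactor of de novo DNA methylation, which rose by 2.28 ± 0.10 (SE) on the log2 scale in QKO mES cells and by 2.07 ± 0.10 in QKO EpiLCs (edgeR adjusted p = 2.46e-22 and 2.10e-21). Dnmt3l also rose in LBRKO mES cells, by 2.88, and in TKO mES cells, by 1.32 (edgeR adjusted p = 1.50e-24 and 6.54e-14). Between WT stages 4 of 28 rose, among them the de novo methyltransferase genes Dnmt3a and Dnmt3b by 4.04 and 4.32 (edgeR adjusted p = 2.08e-36 and 1.05e-33), where 18.2% of all genes rose.

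Markers of other cell states are given beside these values, against the same shares of all genes. Of 11 genes of the 2-cell-like state, in which ERVL elements are known to be read, 8 could be tested, and 5 of them were called lower and 0 higher in QKO mES cells, with a median of -2.74. In QKO EpiLCs 1 was called higher and 7 lower. Zscan4c, which defines that state, averaged 0.0295 CPM in QKO and 0.221 in WT mES cells. Of 7 primitive endoderm markers 4 were called lower in QKO mES cells and none higher, and in QKO EpiLCs 2 were higher (Gata6 by 2.96 and Pdgfra by 2.56 on the log2 scale) and 2 lower (Dab2 and Sox7). Of 6 trophectoderm markers 1 was called lower in QKO mES cells, and the 4 oocyte genes that could be tested of 7 had log2 differences between -0.47 and 0.29 there. The part of such cells in the ERVL-MaLR values was not tested.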

How the data were processed

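Total RNA from 40 libraries was prepared with a stranded kit after ribosomal RNA depletion and sequenced in pairs. Per the labels and the study's methods, the authors trimmed reads with cutadapt 2.5, aligned them with STAR 2.7.10a to GRCm39, and used SAMtools 1.10. They deposited raw counts in 3 tables: genes and single TE copies from uniquely mapped reads with featureCounts 1.6.4, and genes with TE families from reads with up to 100 alignments, which the counter shares among copies. No source used here gives the strand setting of the counting, and a copy's reads can come from either strand or from a host transcript.

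Families and single copies were tested with edgeR 4.0.16 in R 4.3.3 (quasi-likelihood test, TMM factors, filterByExpr with a minimum count of 10, all 8 groups in 1 fit, Benjamini-Hochberg adjustment), in 12 comparisons of families and 7 of copies. TMM factors of the gene table scaled the copy counts. A call needs an adjusted p under 0.05 and a fold over 2. Summed CPM values were compared by exact two-sided permutation tests over 4 measures and 9 comparisons. The counting intervals of single copies were exact binomial intervals from scipy 1.17.1. Gene spans and exons came from the gene table's own coordinates, and copies within 10 kb of each other were joined into 1 locus. Gene lists (naive, primed, primitive endoderm, 2-cell-like, trophectoderm, oocyte, repressors) were matched by symbol. Named families are the 8 with the highest mean level and up to 5 called families at each end of each comparison with at least 1 CPM. Named copies are up to 5 at each end with at least 0.5 CPM in the higher group and no overlap, from which those described were picked. MLT1O, MLT1G1 and MLT1H2 come from that rule, and the copies of the chr11 cluster and those without reads by line were listed after their values had been seen. The members and lists were chosen with earlier results of these data known.

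On simulated counts for QKO against WT mES cells, 77% of genes and families changed by 1.5 on the log2 scale were recovered (26508 features), and 50% of copies changed by 2 (134958 copies). DESeq2 1.42.0, other filters, factors, distances, a replicate block and leaving out libraries were the alternatives. 0 columns of per-sample values were left unused.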

Additional observations from a re-analysis of the deposited data

Results flagged for a closer look

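In 22 of 229 groups of libraries checked, 1 library lay far from the others by Dixon's criterion at the 95% level, which by chance marks a small share of groups. WT mES replicate 7 was high: its inside level was 10330 CPM (the others 6404 to 7916), its outside level 635.6 (369.9 to 468.7) and its level of inside copies without an exon 6306 (3125 to 4208). The same library was high for the families ORR1B1-int at 942.2 CPM (568.9 to 692.5), MTD at 921.1 (493.4 to 638.3), MTC at 527.2 (296.5 to 361.2), ORR1A2 at 425 (251.2 to 313.6), ORR1D1 at 413.2 (210.8 to 276.2), ORR1B1 at 365.4 (229.1 to 275.7), ORR1E at 298.4 (154.3 to 210.9) and MLT1L at 15.09 (6.781 to 9.369).

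TKO EpiLC replicate 1 was low for the inside level at 6169 CPM (the others 7839 to 8010), for inside copies with an exon at 2571 (3093 to 3137), for those without an exon at 3598 (4719 to 4916) and for MTC at 363.7 (422.8 to 431.5), and it was high for MTA_Mm at 643 CPM (547.1 to 557.8). QKO EpiLC replicate 3 was low for ORR1D1 at 521.7 CPM (563.2 to 566.4) and ORR1B1 at 467.1 (503.7 to 509.2). LBRKO mES replicate 2 was low for MLT1O at 4.393 CPM (6.106 to 6.523), and WT EpiLC replicate 1 for MLT1E1 at 2.456 (3.479 to 4.529). Among single copies, WT EpiLC replicate 2 was low for MLT1H_dup881 at 0.1938 CPM (0.4597 to 0.822) and QKO EpiLC replicate 1 for ORR1D2_dup13068 at 0.3238 (0.6392 to 0.6721). The causes were not tested.

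Of 45 interaction tests of named families, 7 passed. The 45 cover the interaction of the lamin and LBR losses in each stage and the stage change in QKO against WT cells. All 7 were for the lamin and LBR losses, each with a QKO change above the sum of the single changes. ORR1A0, MLT1E1 and MLT1H2 were named because they were called higher in QKO cells of these same data, which favours a positive excess. MTA_Mm and ORR1B1 were named by their mean level. In mES cells the excess on the log2 scale was 0.3985 ± 0.1436 (SE) for MTA_Mm and 0.6338 ± 0.1241 for ORR1A0 (edgeR adjusted p = 0.0491 and 1.81e-04). In EpiLCs it was 0.689 ± 0.2606 for MLT1E1, 0.7493 ± 0.2374 for MLT1H2, 0.4361 ± 0.1436 for MTA_Mm, 0.5484 ± 0.1244 for ORR1A0 and 0.5264 ± 0.1804 for ORR1B1 (edgeR adjusted p = 0.0475, 0.017, 0.0219, 8.97e-04 and 0.0279).

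Copies within 5 kb of a gene span entered no comparison of the sums. Their summed level was 1234 CPM in QKO mES cells, against a mean of 649.7 and a highest value of 869.5 in WT mES cells. In EpiLCs it was 1108 CPM against 612.5 and 740.5.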

How the results depend on the processing

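The values below are log2 differences for levels and ratios, and numbers of families or copies called at an adjusted p under 0.05 and a fold over 2 otherwise. Of 192 family counts under alternatives 173 stayed within 1.5 times the reported count, of 238 copy counts 166, of 324 sums 232 kept direction and call, and of 571 values of named families and copies 569. Most reported family counts were 0 and mostly stayed 0, whereas those above 0 moved under many alternatives. The named copies were picked as called and without overlap in these same data, which favours their staying called. The outside level stayed higher in QKO cells under every alternative run, by 1.25 to 1.48 in mES cells and 1.06 to 1.26 in EpiLCs. Sums over WT replicates 1 to 4 or 5 to 8 set 4 libraries against 4, where the exact p cannot be below 0.0286, and none passed after adjustment (lowest adjusted exact p 0.0541). QKO against TKO is of that size too, with an adjusted exact p of 0.0490 as reported, so that it passed under some alternatives and missed under others. With the replicate block the sums are given as values. No comparison had a correlation over 0.1 between same-numbered libraries for every number, so the numbers were not taken to pair the samples, although replicate 1 had correlations of 0.173 to 0.305 in the 4 EpiLC comparisons. The split by exon was chosen after seeing the data. The causes of the changes below were not tested, except that fewer or more copies are counted with a farther distance or another minimum count.

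With a fold over 1.5, families called higher numbered 1 in the WT stage comparison (reported as 0), 63 in QKO mES (reported as 3), 64 in QKO EpiLC (reported as 1), 20 in QKO against TKO mES (reported as 0), 63 in QKO against TKO EpiLC (reported as 4), 1 in the mES interaction of lamins and LBR (reported as 0) and 6 in the EpiLC interaction of lamins and LBR (reported as 0). Under it, families called lower numbered 1 in TKO EpiLC (reported as 0). With TMM factors from gene rows alone, families called higher numbered 8 in QKO mES (reported as 3) and 2 in QKO EpiLC (reported as 1). With no low-count filter, families called higher numbered 5 in QKO mES (reported as 3), 0 in QKO EpiLC (reported as 1) and 2 in QKO against TKO EpiLC (reported as 4). With WT replicates 1 to 4 only, families called higher numbered 27 in QKO mES (reported as 3) and 10 in QKO EpiLC (reported as 1). With WT replicates 5 to 8 only, families called higher numbered 1 in QKO mES (reported as 3) and 3 in QKO EpiLC (reported as 1). With the replicate number as a block over replicates 1 to 4, families called higher numbered 24 in QKO mES (reported as 3) and 10 in QKO EpiLC (reported as 1).

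With WT replicates 1 to 4 only, the inside level was 0.64 in QKO mES (reported as 0.53), 0.01 in TKO EpiLC (reported as -0.06), 0.62 in QKO EpiLC (reported as 0.55), 0.38 in QKO against TKO mES (reported as 0.38) and 0.61 in QKO against TKO EpiLC (reported as 0.61). Also, the outside level was -0.28 in the WT stage comparison (reported as -0.31), 0.63 in TKO mES (reported as 0.58), 1.37 in QKO mES (reported as 1.32), 1.13 in QKO EpiLC (reported as 1.11), 0.74 in QKO against TKO mES (reported as 0.74) and 1.10 in QKO against TKO EpiLC (reported as 1.10). Likewise, the outside to inside ratio was -0.37 in the WT stage comparison (reported as -0.35), 0.36 in TKO mES (reported as 0.43), 0.73 in QKO mES (reported as 0.80), 0.51 in QKO EpiLC (reported as 0.56), 0.37 in QKO against TKO mES (reported as 0.37) and 0.49 in QKO against TKO EpiLC (reported as 0.49). There, the outside level relative to L2 and MIR copies was -0.12 in LBRKO mES (reported as -0.10), 0.07 in TKO mES (reported as 0.10), 0.09 in QKO mES (reported as 0.12), 0.05 in TKO EpiLC (reported as 0.10) and -0.11 in QKO against TKO EpiLC (reported as -0.11). With WT replicates 5 to 8 only, the inside level was -0.01 in the WT stage comparison (reported as 0.04), 0.41 in QKO mES (reported as 0.53), 0.48 in QKO EpiLC (reported as 0.55), 0.38 in QKO against TKO mES (reported as 0.38) and 0.61 in QKO against TKO EpiLC (reported as 0.61). Under it, the outside level was -0.34 in the WT stage comparison (reported as -0.31), 0.53 in TKO mES (reported as 0.58), 1.27 in QKO mES (reported as 1.32), -0.01 in TKO EpiLC (reported as 0.01), 1.09 in QKO EpiLC (reported as 1.11), 0.74 in QKO against TKO mES (reported as 0.74) and 1.10 in QKO against TKO EpiLC (reported as 1.10). Also, the outside to inside ratio was -0.33 in the WT stage comparison (reported as -0.35), 0.02 in LBRKO mES (reported as -0.05), 0.50 in TKO mES (reported as 0.43), 0.87 in QKO mES (reported as 0.80), 0.61 in QKO EpiLC (reported as 0.56), 0.37 in QKO against TKO mES (reported as 0.37) and 0.49 in QKO against TKO EpiLC (reported as 0.49). Likewise, the outside level relative to L2 and MIR copies was -0.07 in LBRKO mES (reported as -0.10), 0.13 in TKO mES (reported as 0.10), 0.14 in QKO mES (reported as 0.12), 0.04 in LBRKO EpiLC (reported as -0.01), 0.15 in TKO EpiLC (reported as 0.10), 0.04 in QKO EpiLC (reported as -0.01) and -0.11 in QKO against TKO EpiLC (reported as -0.11). With the replicate number as a block over replicates 1 to 4, the outside to inside ratio was 0.36 in TKO mES (reported as 0.43) and 0.73 in QKO mES (reported as 0.80). There, the outside level relative to L2 and MIR copies was -0.06 in QKO EpiLC (reported as -0.01). With only copies inside that overlap an exon, the inside level was -0.16 in the WT stage comparison (reported as 0.04), 0.06 in QKO mES (reported as 0.53), 0.03 in QKO EpiLC (reported as 0.55), 0.05 in QKO against TKO mES (reported as 0.38) and 0.14 in QKO against TKO EpiLC (reported as 0.61). Under it, the outside to inside ratio was -0.15 in the WT stage comparison (reported as -0.35), 0.13 in LBRKO mES (reported as -0.05), 0.69 in QKO against TKO mES (reported as 0.37) and 0.95 in QKO against TKO EpiLC (reported as 0.49). With only copies inside that overlap no exon, the outside to inside ratio was -0.19 in LBRKO mES (reported as -0.05) and 0.17 in QKO against TKO mES (reported as 0.37). Without chromosomes 6, 8 and Y, the inside level was 0.37 in QKO against TKO mES (reported as 0.38) and 0.60 in QKO against TKO EpiLC (reported as 0.61). Also, the outside level was -0.003 in TKO EpiLC (reported as 0.01), 0.73 in QKO against TKO mES (reported as 0.74) and 1.06 in QKO against TKO EpiLC (reported as 1.10). Likewise, the outside to inside ratio was 0.36 in QKO against TKO mES (reported as 0.37) and 0.46 in QKO against TKO EpiLC (reported as 0.49). There, the outside level relative to L2 and MIR copies was 0.07 in TKO EpiLC (reported as 0.10), -0.01 in QKO against TKO mES (reported as 0.02) and -0.13 in QKO against TKO EpiLC (reported as -0.11). At least 50 kb outside, the inside level was 0.38 in QKO against TKO mES (reported as 0.38) and 0.61 in QKO against TKO EpiLC (reported as 0.61). Under it, the outside level was 0.81 in QKO against TKO mES (reported as 0.74) and 1.21 in QKO against TKO EpiLC (reported as 1.10). Also, the outside to inside ratio was -0.004 in LBRKO EpiLC (reported as 0.10), 0.43 in QKO against TKO mES (reported as 0.37) and 0.60 in QKO against TKO EpiLC (reported as 0.49). Likewise, the outside level relative to L2 and MIR copies was -0.25 in the WT stage comparison (reported as -0.05), -0.12 in LBRKO mES (reported as -0.10), -0.04 in TKO mES (reported as 0.10), -0.22 in QKO mES (reported as 0.12), 0.04 in LBRKO EpiLC (reported as -0.01), 0.21 in TKO EpiLC (reported as 0.10), 0.01 in QKO EpiLC (reported as -0.01), -0.19 in QKO against TKO mES (reported as 0.02) and -0.20 in QKO against TKO EpiLC (reported as -0.11). Without the 20 copies with most reads, the outside level relative to L2 and MIR copies was -0.09 in the WT stage comparison (reported as -0.05), 0.0002 in LBRKO EpiLC (reported as -0.01), 0.04 in QKO EpiLC (reported as -0.01) and -0.05 in QKO against TKO EpiLC (reported as -0.11).

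With WT replicates 1 to 4 only, copies called higher inside numbered 357 in LBRKO mES (reported as 47) and 35 in TKO EpiLC (reported as 67). There, copies called lower inside numbered 727 in the WT stage comparison (reported as 1202), 55 in LBRKO mES (reported as 31), 36 in TKO mES (reported as 66), 26 in LBRKO EpiLC (reported as 17) and 25 in TKO EpiLC (reported as 38). Under it, copies called higher outside numbered 38 in the WT stage comparison (reported as 63) and 16 in LBRKO mES (reported as 1). Also, copies called lower outside numbered 20 in LBRKO mES (reported as 12) and 12 in TKO mES (reported as 20). With WT replicates 5 to 8 only, copies called higher inside numbered 617 in the WT stage comparison (reported as 1150), 12 in LBRKO mES (reported as 47), 1272 in QKO mES (reported as 2333) and 77 in LBRKO EpiLC (reported as 164). Likewise, copies called lower inside numbered 19 in LBRKO mES (reported as 31) and 6 in LBRKO EpiLC (reported as 17). There, copies called higher outside numbered 34 in the WT stage comparison (reported as 63), 0 in LBRKO mES (reported as 1) and 12 in LBRKO EpiLC (reported as 28). Under it, copies called lower outside numbered 1 in LBRKO EpiLC (reported as 2). With the replicate number as a block over replicates 1 to 4, copies called higher inside numbered 387 in LBRKO mES (reported as 47) and 33 in TKO EpiLC (reported as 67). Also, copies called lower inside numbered 722 in the WT stage comparison (reported as 1202), 59 in LBRKO mES (reported as 31), 36 in TKO mES (reported as 66), 27 in LBRKO EpiLC (reported as 17) and 25 in TKO EpiLC (reported as 38). Likewise, copies called higher outside numbered 40 in the WT stage comparison (reported as 63) and 18 in LBRKO mES (reported as 1). There, copies called lower outside numbered 19 in LBRKO mES (reported as 12) and 12 in TKO mES (reported as 20). Without chromosomes 6, 8 and Y, copies called higher inside numbered 29 in LBRKO mES (reported as 47). At least 50 kb outside, copies called higher outside numbered 4 in the WT stage comparison (reported as 63), 0 in LBRKO mES (reported as 1), 14 in TKO mES (reported as 84), 36 in QKO mES (reported as 320), 3 in LBRKO EpiLC (reported as 28), 3 in TKO EpiLC (reported as 20) and 27 in QKO EpiLC (reported as 304). Under it, copies called lower outside numbered 53 in the WT stage comparison (reported as 320), 1 in LBRKO mES (reported as 12), 0 in TKO mES (reported as 20), 2 in QKO mES (reported as 25), 0 in LBRKO EpiLC (reported as 2), 0 in TKO EpiLC (reported as 16) and 1 in QKO EpiLC (reported as 20). With a minimum count of 5, copies called higher inside numbered 2064 in the WT stage comparison (reported as 1150). Also, copies called lower inside numbered 1965 in the WT stage comparison (reported as 1202). Likewise, copies called higher outside numbered 143 in the WT stage comparison (reported as 63), 572 in QKO mES (reported as 320) and 553 in QKO EpiLC (reported as 304). There, copies called lower outside numbered 666 in the WT stage comparison (reported as 320), 42 in QKO mES (reported as 25), 1 in LBRKO EpiLC (reported as 2) and 35 in QKO EpiLC (reported as 20). With a minimum count of 20, copies called higher inside numbered 391 in the WT stage comparison (reported as 1150), 1058 in QKO mES (reported as 2333) and 1393 in QKO EpiLC (reported as 3192). Under it, copies called lower inside numbered 530 in the WT stage comparison (reported as 1202) and 80 in QKO mES (reported as 139). Also, copies called higher outside numbered 14 in the WT stage comparison (reported as 63), 55 in TKO mES (reported as 84), 136 in QKO mES (reported as 320) and 134 in QKO EpiLC (reported as 304). Likewise, copies called lower outside numbered 133 in the WT stage comparison (reported as 320), 9 in TKO mES (reported as 20), 11 in QKO mES (reported as 25), 8 in TKO EpiLC (reported as 16) and 8 in QKO EpiLC (reported as 20). With DESeq2 and the gene table factors, copies called higher outside numbered 2 in LBRKO mES (reported as 1). There, copies called lower outside numbered 1 in LBRKO EpiLC (reported as 2).

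Leaving out 1 library at a time gave the following ranges. Families called higher ranged over 2 to 12 in QKO mES (ends without WT mES replicate 3 and without WT mES replicate 7), 0 to 6 in QKO EpiLC (ends without QKO EpiLC replicate 2 and without WT EpiLC replicate 7), 1 to 6 in QKO against TKO EpiLC (ends without TKO EpiLC replicate 1 and without QKO EpiLC replicate 1) and 0 to 2 in the EpiLC interaction of lamins and LBR (ends without WT EpiLC replicate 1 and without LBRKO EpiLC replicate 3). The inside level ranged over -0.01 to 0.10 in the WT stage comparison (ends without WT EpiLC replicate 7 and without WT mES replicate 7), 0.23 to 0.33 in LBRKO mES (ends without WT mES replicate 4 and without WT mES replicate 7), 0.11 to 0.21 in TKO mES (ends without TKO mES replicate 4 and without WT mES replicate 7), -0.01 to 0.28 in LBRKO EpiLC (ends without LBRKO EpiLC replicate 3 and without LBRKO EpiLC replicate 1), -0.10 to 0.03 in TKO EpiLC (ends without WT EpiLC replicate 1 and without TKO EpiLC replicate 1), 0.31 to 0.44 in QKO against TKO mES (ends without QKO mES replicate 3 and without QKO mES replicate 1) and 0.52 to 0.64 in QKO against TKO EpiLC (ends without TKO EpiLC replicate 1 and without TKO EpiLC replicate 2). The outside level ranged over -0.35 to -0.23 in the WT stage comparison (ends without WT EpiLC replicate 7 and without WT mES replicate 7), 0.16 to 0.30 in LBRKO mES (ends without LBRKO mES replicate 4 and without WT mES replicate 7), 0.54 to 0.66 in TKO mES (ends without TKO mES replicate 4 and without WT mES replicate 7), -0.03 to 0.07 in TKO EpiLC (ends without WT EpiLC replicate 1 and without TKO EpiLC replicate 1), 0.69 to 0.80 in QKO against TKO mES (ends without QKO mES replicate 3 and without QKO mES replicate 1) and 1.03 to 1.13 in QKO against TKO EpiLC (ends without TKO EpiLC replicate 1 and without TKO EpiLC replicate 2). The outside to inside ratio ranged over 0.36 to 0.38 in QKO against TKO mES (ends without TKO mES replicate 2 and without QKO mES replicate 3) and 0.47 to 0.52 in QKO against TKO EpiLC (ends without TKO EpiLC replicate 3 and without TKO EpiLC replicate 1). The outside level relative to L2 and MIR copies ranged over -0.11 to -0.08 in LBRKO mES (ends without LBRKO mES replicate 2 and without WT mES replicate 1), 0.09 to 0.12 in TKO mES (ends without WT mES replicate 2 and without WT mES replicate 1), -0.03 to 0.002 in LBRKO EpiLC (ends without LBRKO EpiLC replicate 3 and without LBRKO EpiLC replicate 4), 0.07 to 0.12 in TKO EpiLC (ends without TKO EpiLC replicate 1 and without TKO EpiLC replicate 3), -0.02 to 0.01 in QKO EpiLC (ends without WT EpiLC replicate 6 and without QKO EpiLC replicate 3) and -0.14 to -0.08 in QKO against TKO EpiLC (ends without TKO EpiLC replicate 3 and without TKO EpiLC replicate 1). Copies called higher inside ranged over 19 to 235 in LBRKO mES (ends without LBRKO mES replicate 4 and without WT mES replicate 7), 1499 to 3200 in QKO mES (ends without QKO mES replicate 3 and without WT mES replicate 7) and 77 to 224 in LBRKO EpiLC (ends without LBRKO EpiLC replicate 3 and without WT EpiLC replicate 7). Copies called lower inside ranged over 18 to 37 in LBRKO mES (ends without LBRKO mES replicate 3 and without WT mES replicate 7), 42 to 68 in TKO mES (ends without TKO mES replicate 4 and without WT mES replicate 4) and 5 to 20 in LBRKO EpiLC (ends without LBRKO EpiLC replicate 4 and without WT EpiLC replicate 8). Copies called higher outside ranged over 0 to 11 in LBRKO mES (ends without WT mES replicate 1 and without WT mES replicate 7) and 13 to 32 in LBRKO EpiLC (ends without LBRKO EpiLC replicate 3 and without WT EpiLC replicate 7). Copies called lower outside ranged over 0 to 2 in LBRKO EpiLC (ends without LBRKO EpiLC replicate 2 and without WT EpiLC replicate 1). Copies with few reads could not be tested: the 697 outside copies tested held 32.5% of outside reads, so the copy counts describe the deeper copies. Fits without 1 library of a copy comparison used the dispersion of the whole fit.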

Other observations

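Of the 14 copies without a read in TKO and QKO libraries, those away from the chr11 cluster and H2-T5 lay at 6 places. MTB_dup2733 (chr6:144974776-144975180, in an intron of Bcat1, a branched-chain aminotransferase gene) averaged 0.368 CPM in WT and 1.09 in LBRKO mES cells. MTA_Mm_dup8156 (chr8:36710262-36710639, in an intron of Lonrf1) averaged 0.274 and 0.289 CPM in these groups. MLT1D_dup701 (chr2:59233924-59234020, 3798 bases from Gm13549) had 520 reads over the WT and LBRKO libraries and was read in each of the 24. The others were MTA_Mm_dup3646 in an intron of Gm42743, ORR1B1-int_dup30039 at 7667 bases from Ier2, and ORR1A3_dup2262 at 18153 bases from Clec3a.

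Of the copies read in TKO and QKO cells only, 6 lay within 5 kb of Gm10769 or Gm48103 on chr13, between chr13:65543052-65543416 and chr13:66727916-66728166. ORR1D1_dup18137 (chr13:62011553-62011676, 2063 bases from Gm7240) held most reads of those on chr13, 526 over the 16 TKO and QKO libraries, with means of 1.84 CPM in QKO and 1.01 in TKO mES cells. ORR1G_dup2903 (chr6:56645779-56645988, 16306 bases from Pde1c) was read in 8 of the 16 libraries, with means of 0.506 CPM in QKO EpiLCs and 0.334 in QKO mES cells and 0 in TKO cells. The groups carry different cell lines, and line and genotype cannot be told apart in these copies.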
